A study of Mus musculus with 59 samples.

Results

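GABA-A receptors are pentameric chloride channels opened by GABA, the main inhibitory transmitter of the forebrain. Of the subunit genes of this family, 7 were followed by name: Gabra2, Gabra3, Gabra4 and Gabra5, which encode alpha subunits, Gabrb1 and Gabrb2, which encode beta subunits, and Gabrd, which encodes the delta subunit. They were chosen by symbol, with earlier results of these data known, and make up 7 of the 18088 genes in the deposited table. All 7 passed the filter on low values, a mean normalized count of at least 10 over all libraries.

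Alpha and beta subunits form the GABA binding sites, and the alpha subunit largely sets where a receptor sits and how fast it closes. Receptors with Gabra2 or Gabra3 are mostly synaptic, and those with Gabra5 are mostly extrasynaptic and are best known from the hippocampus, the deep cortical layers and the olfactory bulb. Gabrd replaces the gamma subunit in extrasynaptic receptors, often together with Gabra4 in the forebrain, and such receptors carry tonic inhibition and respond to neurosteroids. Gabra3 and Gabra5 are more abundant in the immature cortex than in the adult one.

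Messenger RNA was measured in prefrontal cortex tissue of 59 mice of the C57BL/6J strain, taken on postnatal day 25. The mice carried a heterozygous Shank3 knock-in allele (HT) or were wild type (WT), and from postnatal day 3 to day 24 they received vehicle, fluoxetine or lithium through the milk of the dam. Shank3 is a scaffold protein of excitatory synapses, fluoxetine is a serotonin reuptake inhibitor and lithium is a mood stabilizer. The 6 arms were WT vehicle, WT fluoxetine, HT vehicle, HT fluoxetine and HT lithium with 10 mice each (5 females and 5 males), and WT lithium with 9 (4 females and 5 males). Every column name of the deposited table begins with L68P, and the sample labels do not spell out the mutation. They give neither a dose nor the litters, so pups that shared a dam were counted as independent and the p-values measure the spread between pups.

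Reads recovered from the normalized counts, summed over the 18088 listed genes, came to 22984556 to 35969254 per library. The counts of the 7 genes ran from 994 reads for Gabrd to 6582 reads for Gabra3 in a single library. The summed normalized count of 7 markers of cortical excitatory neurons ran from 89872 to 195958, so every library held them. Markers of the olfactory bulb, which borders the dissected region, varied far more between libraries. An olfactory bulb index, the mean over 8 bulb markers of each marker's level relative to its mean over all libraries, ran from 0.0837 to 4.31. An index over 2.5 or less than 5% mitochondrial reads set 8 libraries apart: WT fluoxetine females 1, 2 and 4, HT vehicle males 4 and 5, HT lithium females 4 and 5, and WT lithium female 1. One HT vehicle female, number 1, also stood out in choroid plexus markers, with an index of 23.8. In whole tissue, fewer cells of a type and less RNA per cell cannot be told apart.

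The genes lie on 5 chromosomes (GRCm38). Gabra2 (ENSMUSG00000000560) is at chr5:70957597-71095849 on the minus strand, Gabra4 (ENSMUSG00000029211) at chr5:71569749-71658308 on the minus strand and Gabrb1 (ENSMUSG00000029212) at chr5:71658113-72149037 on the plus strand. Gabra4 and Gabrb1 thus start head to head, and their annotated ends overlap by 196 bases. The library kit marks strand, but whether strand was used in counting is not given in the sources used here, so the counts of this pair are uncertain as far as reads of the overlap go. Gabra3 (ENSMUSG00000031343) is at chrX:72432681-72656848 on the minus strand, Gabra5 (ENSMUSG00000055078) at chr7:57407672-57510059 on the minus strand, Gabrb2 (ENSMUSG00000007653) at chr11:42419757-42629028 on the plus strand and Gabrd (ENSMUSG00000029054) at chr4:155384980-155398112 on the minus strand.

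The RefSeq promoter table (GRCm38.p6) matched 6 of the 7 genes, all but Gabrd. Shown here are the windows of up to 250 bases upstream of the start for the head-to-head pair Gabra4 and Gabrb1, whose levels moved together, and for Gabra5 and Gabra2, which did not move with them. Each reads 5′ to 3′ on the strand of its gene, and capitals mark a GC box (GGGCGG or its complement CCGCCC). Bases from an annotated UTR of any subunit gene up to the start are left out. This shortens the Gabra4 window by 55 bases and the Gabrb1 window by 111, in each case for a UTR of the neighbouring gene.
Gabra4, chr5:71658364-71658558, minus strand: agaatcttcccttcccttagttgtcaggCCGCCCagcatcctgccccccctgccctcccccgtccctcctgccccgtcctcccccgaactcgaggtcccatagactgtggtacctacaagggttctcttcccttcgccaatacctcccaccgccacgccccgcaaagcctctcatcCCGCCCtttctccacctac
Gabrb1, chr5:71657671-71657809, plus strand: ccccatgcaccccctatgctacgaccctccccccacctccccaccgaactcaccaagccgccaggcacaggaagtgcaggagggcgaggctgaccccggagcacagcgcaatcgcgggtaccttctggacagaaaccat
Gabra5, chr7:57510060-57510309, minus strand: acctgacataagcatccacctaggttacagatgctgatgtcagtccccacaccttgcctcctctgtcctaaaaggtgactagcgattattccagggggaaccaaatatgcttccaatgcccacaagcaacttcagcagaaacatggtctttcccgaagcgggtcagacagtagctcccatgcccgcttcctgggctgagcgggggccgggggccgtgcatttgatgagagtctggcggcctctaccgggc
Gabra2, chr5:71095850-71096099, minus strand: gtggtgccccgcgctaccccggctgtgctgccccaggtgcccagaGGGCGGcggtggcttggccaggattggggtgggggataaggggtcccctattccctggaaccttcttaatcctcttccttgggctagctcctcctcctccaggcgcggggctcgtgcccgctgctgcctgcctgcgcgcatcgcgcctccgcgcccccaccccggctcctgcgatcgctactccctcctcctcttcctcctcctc

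The windows shown were GC-rich for Gabra2 (70.0% G or C), Gabrb1 (65.5%) and Gabra4 (63.6%) and lower for Gabra5 (56.4%), against a median of 52.4% over all 32851 entries. The Gabrb1 window shown has 139 bases, lies within the span of Gabra4 and ends before the annotated Gabrb1 start at chr5:71658113. The Gabra4 window lies within the span of Gabrb1, so each of these windows overlaps the neighbouring gene. The window of a second Gabrb1 start, chr5:71699682-71699931, has 50.8% G or C. A GC box stood in a window of Gabra2, Gabra4 and Gabrb2, and 32.74% of all windows of 250 bases hold one. The letters TATAAA or TTTATA, found in 12.37% of all windows, stood in windows of Gabra3 and Gabrb2. A search of both strands for the CRE half-site TGACG (17.77% of all windows), the E-box CACGTG (6.02%), the Egr core GTGGGCG (7.02%) and the AP-1 site TGANTCA (6.75%) matched none of the members' 10 windows. One window each of Gabra3 (209 bases), Gabra4 (195) and Gabrb1 (139) was searched after shortening. The percentages and the median over all entries are for full windows of 250 bases, so they are not like for like with these. These are matches of letters in the windows searched, and no binding was measured.

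The genes differed in level by several fold. In WT vehicle mice, and per kilobase of the longest annotated transcript, the mean normalized count was 1339 ± 197 (SD, n = 10) for Gabra3, 939.7 ± 146 for Gabrb2, 869 ± 131 for Gabra4, 846 ± 117 for Gabrd and 750.2 ± 90.8 for Gabra5. Lower on this scale were Gabra2 at 339 ± 79.7 and Gabrb1 at 294 ± 29.6. The libraries of Gabra3 overlapped those of Gabrb2, Gabra4 and Gabrd, and the 4 genes Gabrb2, Gabra4, Gabrd and Gabra5 each differed from the next in this order by less than the larger SD of the pair. The order depends on the transcript taken as the gene's length: with the median annotated transcript, Gabra4 (1484 per kilobase) came before Gabrb2 (1356), and Gabrb1 (556) before Gabra2 (339).

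Within each gene, the levels varied little between the 6 arms and more between libraries of one arm. Over all 59 libraries the coefficient of variation of the normalized count was 12.9% for Gabra3, 13.7% for Gabrb1, 14.9% for Gabra5, 15.1% for Gabrd, 15.8% for Gabra4, 18.2% for Gabrb2 and 18.5% for Gabra2. The WT fluoxetine arm was the most spread of the 6 for Gabra3, Gabra4, Gabra5, Gabrb1, Gabrb2 and Gabrd, with 27.8% for Gabrb2 and 21.7% for Gabra5. That arm holds the 3 WT fluoxetine females with the high bulb index.

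**Figure D1:**
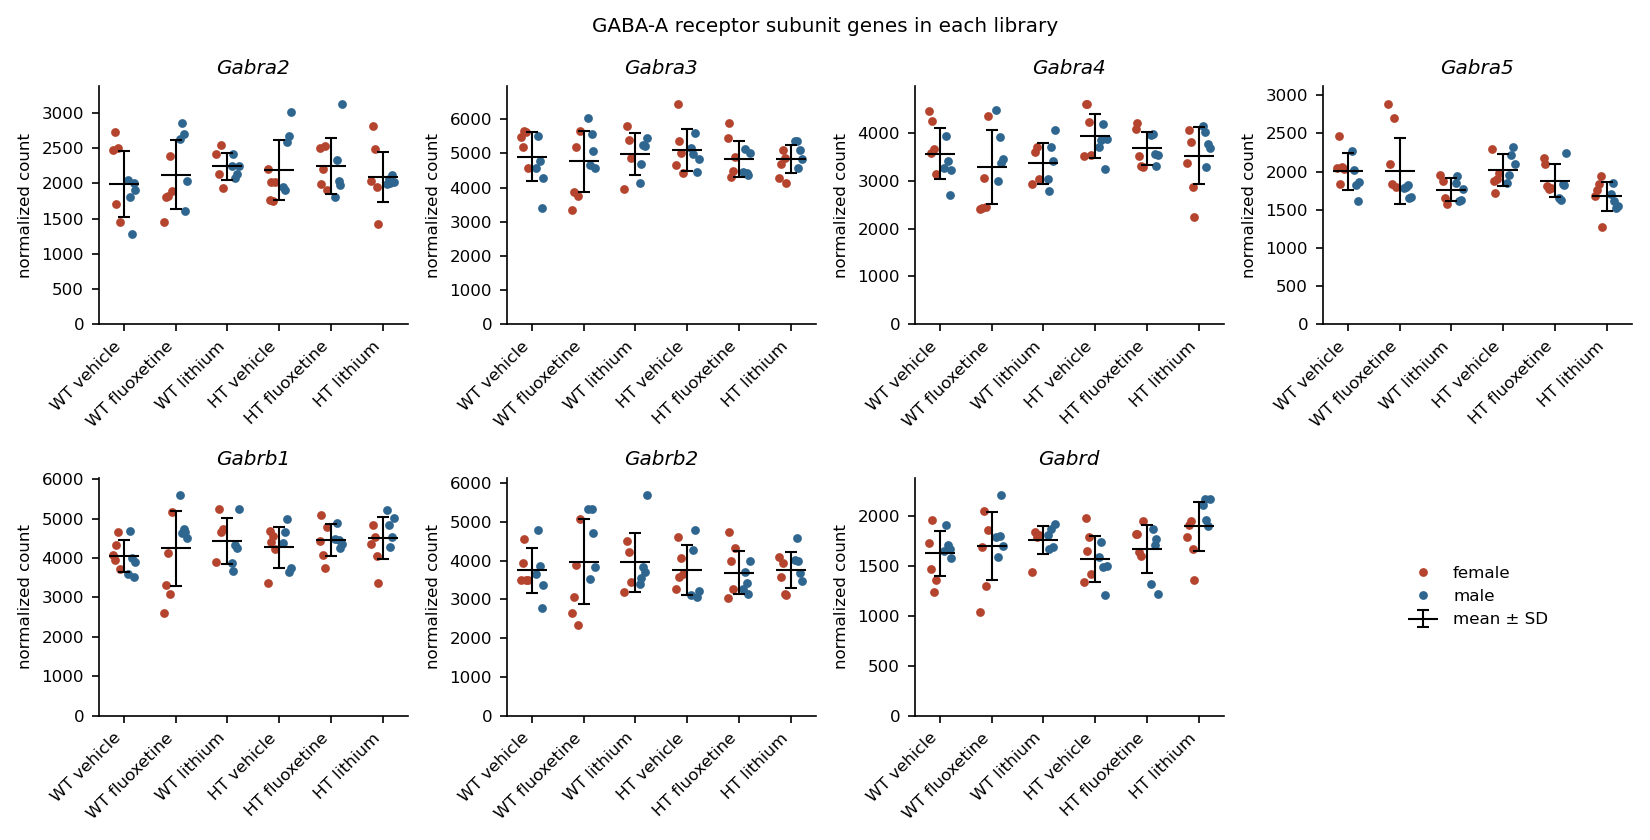
Normalized count (vertical axis, from 0) of each of the 7 genes in every library, by arm of genotype and drug. Points are mice, red for females and blue for males, and the bars are the mean ± SD of the arm. In HT lithium mice Gabra5 has its lowest arm mean and Gabrd its highest.

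With lithium in HT mice Gabra5 fell and Gabrd rose, both subunits of mostly extrasynaptic receptors, while Gabra2, Gabra3, Gabra4, Gabrb1 and Gabrb2 did not pass the test. These are 2 of 7 genes at a limma adjusted p under 0.05, where 20.3% of the 16599 tested genes passed (10.9% higher and 9.43% lower), so a share of this size is not far from that of all genes. The median log2 change of the 7 genes was -0.06, against -0.0018 over all genes tested. Changes here are log2 fold changes ± SE on log2(normalized count + 1), averaged over the sexes.

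The normalized count of Gabra5 in HT vehicle mice was 1714 at the lowest, 1963 at the median and 2319.8 at the highest. In HT lithium mice it was 1279, 1696 and 1937. The means of 2021 ± 205 (SD, n = 10) and 1674 ± 193 (SD, n = 10) give a change of -0.27 ± 0.08 or -17.3% (limma adjusted p = 0.00691). The lithium males had 1708, 1849.9, 1611, 1524 and 1545, and the vehicle males 1856, 1949.5, 2224, 2319.8 and 2101. Females had 1684, 1764, 1839, 1937 and 1279 under lithium and 2297, 1871.5, 1714, 1901 and 1976 under vehicle. The lowest value of all, 1279, came from HT lithium female 5, the library with 2.70% mitochondrial reads.

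Gabrd had normalized counts of 1203, 1545 and 1978 (lowest, median and highest) in HT vehicle mice and of 1362, 1928 and 2169.6 in HT lithium mice. Its mean was 1568 ± 229 (SD, n = 10) under vehicle and 1896 ± 247 (SD, n = 10) under lithium, a change of 0.28 ± 0.09 or 21.1% (limma adjusted p = 0.0271). The lithium males had 2103, 2169.6, 1953, 1894 and 2168, and the vehicle males 1589, 1734, 1489, 1203 and 1501. Females had 1787, 1909.6, 1946, 1665 and 1362 under lithium and 1333, 1978, 1649.8, 1787 and 1413 under vehicle.

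Gabra5 changed by -0.34 in males (limma adjusted p = 0.0336 in males alone) and by -0.21 in females (limma adjusted p = 0.215 in females alone). For Gabrd these were 0.46 in males (limma adjusted p = 0.0212) and 0.09 in females (limma adjusted p = 0.717). Each sex alone here means a contrast of that sex's groups in the same fit of all 59 libraries. The share of all genes given above is from the contrast averaged over the sexes, and none is given for each sex alone. The difference between the sexes did not pass for either gene: it was 0.14 ± 0.15 (females minus males) for Gabra5, with a limma adjusted p of 0.641, and -0.37 ± 0.19 for Gabrd, with a limma adjusted p of 0.295.

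The bulb index moved with this comparison. Its median was 0.192 in HT lithium and 0.676 in HT vehicle mice. All 5 HT lithium males lay between 0.0837 and 0.236, and the HT vehicle males between 0.121 and 3.11. All 8 bulb markers were lower with lithium in HT mice, none past the test and at a median log2 change of -1.06, and none was at 0 in every library. As covariates, the bulb and striatum indices were each taken as the mean log2(normalized count + 1) over 8 bulb or 7 striatum markers. This differs from the bulb index defined above. With the bulb and striatum indices as covariates Gabra5 changed by -0.20 (limma adjusted p = 0.00648) and Gabrd by 0.21 (limma adjusted p = 0.0349). Without the 8 libraries set apart the changes were -0.21 (limma adjusted p = 0.0337) and 0.29 (limma adjusted p = 0.0183), so both calls held in these fits. HT vehicle female 1, with a bulb index of 2.49, lay just under the limit of 2.5 and stayed in the last of them. Removing the trend of each library on GC content left Gabra5 at -0.24 (limma adjusted p = 0.0219) and moved Gabrd, at 56.8% G or C the richest of the 7 genes, to 0.18 (limma adjusted p = 0.214). The call for Gabrd was also lost when HT lithium female 3, HT vehicle female 1, HT vehicle female 5 or HT vehicle male 4 was left out, with changes of 0.25, 0.24, 0.25 and 0.24 and limma adjusted p-values from 0.0518 to 0.0694.

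Markers of other cell types also passed in this comparison, and their part in the changes of Gabra5 and Gabrd was not tested. Of 6 microglia markers 3 were higher (Csf1r 0.35, Tmem119 0.31 and C1qa 0.22), and the summed normalized count of the list ran from 5268 to 7691 in HT vehicle and from 6698 to 8131 in HT lithium mice. Of 6 astrocyte markers 2 were higher (Aldoc 0.30 and Aldh1l1 0.22), with sums of 42846 to 59125 and 49387 to 65732. Of 5 markers of endothelium and pericytes 2 were higher (Flt1 0.37 and Pdgfrb 0.20), with sums of 7705 to 9166 and 7107 to 10568. Among neurons, the interneuron marker Pvalb (0.47, 1 of 12) and the upper layer marker Cux2 (0.42, 1 of 5) were higher and the deep layer marker Foxp2 (-0.48, 1 of 6) was lower. The markers of excitatory neurons, oligodendrocytes, striatum, thalamus and choroid plexus did not pass by limma, with 2 of 7, 2 of 7, 1 of 7, 1 of 4 and 1 of 6 at an unadjusted p under 0.05. No marker of these lists was at 0 in every library of either arm.

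The ratio of the normalized count of Gabrd to that of Gabra5, chosen after the values were seen and given with no test, summarizes the shift. It averaged 0.790 ± 0.177 (SD, n = 10) in HT vehicle mice, with a range of 0.519 to 1.06, and 1.14 ± 0.147 (SD, n = 10) in HT lithium mice, with a range of 0.860 to 1.40. In WT mice it averaged 0.826 ± 0.172 (SD, n = 10) under vehicle and 1.01 ± 0.138 (SD, n = 9) under lithium. Both fluoxetine arms averaged 0.90, with an SD of 0.166 in HT and 0.290 in WT mice. Within groups Gabra5 rose and Gabrd fell with the bulb index (r = 0.72 and -0.61), so the ratio also moves with that index. The median bulb index was 0.192 in HT lithium and 0.676 in HT vehicle mice, and its part in the ratio was not tested.

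In WT mice lithium changed none of the 7 genes past the test by limma, edgeR or DESeq2, where 12.8% of all genes passed by limma, and 1 of the 7, Gabra5, had an unadjusted p under 0.05.
Gabra5 had normalized counts of 1609, 2025 and 2470.5 (lowest, median and highest) under vehicle and of 1575, 1771 and 1959 under lithium, and its change was -0.18 ± 0.08 (limma adjusted p = 0.12). Gabra2 stood at 0.21 ± 0.12 (limma adjusted p = 0.265), Gabrb1 at 0.13 ± 0.09 (limma adjusted p = 0.324) and Gabrd at 0.12 ± 0.10 (limma adjusted p = 0.464). Gabra3, Gabra4 and Gabrb2 had changes of 0.03, -0.08 and 0.07. With the bulb and striatum indices as covariates, Gabra5 (-0.17, limma adjusted p = 0.0377) and Gabra2 (0.28, limma adjusted p = 0.0424) passed, and without the libraries set apart Gabra5 passed at -0.21 (limma adjusted p = 0.0224). The 12.8% of all genes is from the fit as reported, and the share of all genes under these settings is not given here.

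The effect of lithium was not shown to differ between the genotypes for any of the 7 genes. The difference, HT minus WT, was -0.09 for Gabra5 (95% interval -0.31 to 0.12, limma adjusted p = 0.773) and 0.16 for Gabrd (95% interval -0.11 to 0.43, limma adjusted p = 0.664). It was largest for Gabra2, at -0.27 (95% interval -0.60 to 0.07, limma adjusted p = 0.528), and 1 of the 16599 genes (0.00602%) passed this test. For Gabra5 and Gabrd the intervals still allow differences as large as the lithium effects in HT mice.

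Genotype alone moved none of the 7 genes past the test, and no gene of the 16599 passed in any of the 3 comparisons of HT with WT mice (0% each by limma). At an unadjusted p under 0.05 there were 1074 genes under vehicle, 1883 under fluoxetine and 1839 under lithium, and none of the 7. By edgeR 1, 1 and 0 genes passed and by DESeq2 6, 19 and 37, again with none of the 7 among them. Under vehicle the 7 changes ran from -0.05 for Gabrd (95% interval -0.24 to 0.13) to 0.15 for Gabra2 (95% interval -0.08 to 0.38), and Gabra5 stood at 0.02. Under fluoxetine Gabra4 had the largest difference, 0.19 ± 0.09 (limma adjusted p = 0.442), with a mean of 3684 ± 350 (SD, n = 10) in HT mice against 3298 ± 774 (SD, n = 10) in their WT counterparts. The other 6 genes lay between -0.08 for Gabra5 and 0.10 for Gabrb1. Under lithium the range was -0.12 for Gabra2 to 0.10 for Gabrd, with a limma adjusted p of 0.683 or above for all 7.

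Fluoxetine changed none of the 7 genes in either genotype when the sexes were averaged, by limma, edgeR or DESeq2, and none had an unadjusted p under 0.05. By limma 0.277% of all genes passed in HT mice and 5.66% in WT mice. In HT mice the changes ran from -0.10 for Gabra5 (limma adjusted p = 0.619) to 0.09 for Gabrd (limma adjusted p = 0.753). In WT mice they ran from -0.14 for Gabra4 (limma adjusted p = 0.44) to 0.10 for Gabra2 (limma adjusted p = 0.701). Without the 8 libraries set apart Gabrb1 passed in WT mice, at 0.23 (limma adjusted p = 0.0381), and in females alone Gabra4 passed, at -0.41 (limma adjusted p = 0.0331). The first of these settings keeps only females 3 and 5 of the WT fluoxetine females. The 5.66% of all genes is from the fit as reported and not from these settings. The difference between the genotypes in the fluoxetine effect was at most 0.09 in size, for Gabra5 (95% interval -0.30 to 0.12, limma adjusted p = 0.952). No gene of the 16599 passed that test (0%), and 844 had an unadjusted p under 0.05.

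**Figure D2:**
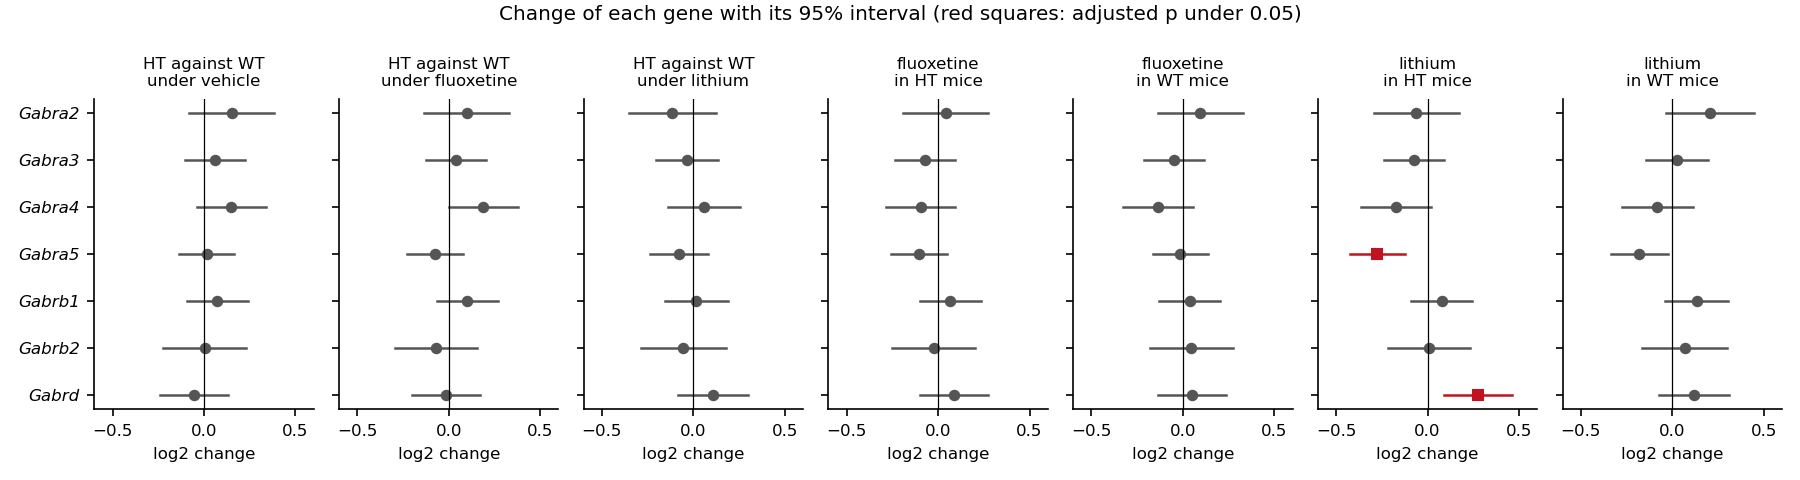
Log2 change of each of the 7 genes (points, horizontal axis) with its 95% interval (bars) in the 7 comparisons of arms. Red squares mark a limma adjusted p under 0.05, which only Gabra5 and Gabrd reach, both with lithium in HT mice.

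In WT mice fluoxetine effects were set against each other in the sexes. Gabra2, Gabra3, Gabra4, Gabrb1 and Gabrb2 lay below 0 in females, at -0.19 to -0.41, and above 0 in males, at 0.14 to 0.38, while Gabra5 stood at 0.10 and -0.12 and Gabrd at 0.01 and 0.09. Gabra3 and Gabrb1 differed between the sexes past the test, 2 of 7 genes where 8.66% of all genes passed (5.08% lower). Gabra3 changed by -0.31 in females and 0.21 in males, a difference of -0.52 ± 0.16 (limma adjusted p = 0.0381). Gabrb1 changed by -0.22 in females and 0.30 in males, a difference of -0.51 ± 0.17 (limma adjusted p = 0.0429). Gabra4 (-0.55, limma adjusted p = 0.0572), Gabra2 (-0.57, limma adjusted p = 0.107) and Gabrb2 (-0.51, limma adjusted p = 0.135) had differences of the same size that did not pass, and the median over the 7 genes was -0.51, against 0.01 over all genes.

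The low values of the females came from 3 libraries. The normalized count of Gabrb1 was 2605, 3320.2 and 3089 in WT fluoxetine females 1, 2 and 4, and 4124 and 5156 in females 3 and 5. The WT fluoxetine males had 5594, 4622, 4739, 4662 and 4499.5. Vehicle females lay between 3727 and 4660.2 and vehicle males between 3509.9 and 4684. Gabra3 showed the same split, with 3329.9, 3865 and 3740.2 in females 1, 2 and 4 and 5171 and 5650.3 in females 3 and 5, against 4568 to 6039 in the fluoxetine males. The 3 low females had bulb indices of 3.84, 2.64 and 4.31 and excitatory neuron indices of 0.569, 0.788 and 0.497, and females 3 and 5 had bulb indices of 0.104 and 0.0851. Markers of other cell types passed the same test of a sex difference, and their part in it was not tested. Of 5 markers of endothelium and pericytes, Cldn5 (0.85) and Pdgfrb (0.70) had a higher fluoxetine effect in females, as did Slc32a1 (0.79) of 12 interneuron markers and Lef1 (0.85) of 4 thalamus markers. The effect was lower in females for Vip (-0.72) of the interneuron list and Nrn1 (-0.70) of 7 excitatory neuron markers.

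Of the WT fluoxetine females, only numbers 3 and 5 remained without the 8 libraries set apart. In that fit the difference fell to -0.18 for Gabra3 (limma adjusted p = 0.61) and -0.14 for Gabrb1 (limma adjusted p = 0.669). With the bulb and striatum indices as covariates it was -0.44 (limma adjusted p = 0.0449) and -0.41 (limma adjusted p = 0.0455), and edgeR gave adjusted p-values of 0.0532 and 0.0633. Leaving out one library at a time gave 0 to 4 calls among the 7 genes. Both calls were lost without WT fluoxetine female 1, 2 or 4, WT fluoxetine male 1 or 3, WT vehicle female 1, 3 or 4, or WT vehicle male 4 or 5, and that of Gabrb1 also without WT vehicle male 1 or 3. Over all 20 fits the difference ran from -0.62 to -0.42 for Gabra3 (limma adjusted p up to 0.111) and from -0.65 to -0.40 for Gabrb1 (limma adjusted p up to 0.119), and 4 genes passed without WT fluoxetine female 5 or WT vehicle female 5. In HT mice the sex difference in the fluoxetine effect was 0.05 for Gabra3 and -0.01 for Gabrb1, each with a limma adjusted p of 0.997. No gene of the 16599 passed there (0%), and 881 had an unadjusted p under 0.05.

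Without drug, the sexes did not differ past the test for any of the 7 genes, where 1.98% of all genes passed. In limma fits, differences of females minus males ran from -0.03 for Gabra2 to 0.16 for Gabra4 (limma adjusted p = 0.435). X-linked Gabra3 stood at 0.14 ± 0.08 (limma adjusted p = 0.419).

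Across libraries the 7 genes fell into a group of 5 that moved together and a pair that did not follow it. After the 12 group means were subtracted, Gabra3, Gabra4, Gabrb1, Gabrb2 and Gabrd correlated with each other over 59 libraries at Pearson r from 0.54 to 0.81 and Spearman rho from 0.55 to 0.83. The adjusted permutation p was at most 0.00042 for r and 0.000294 for rho, and r ran from 0.52 to 0.79 without the 2 libraries farthest from the median of the first gene. The head-to-head neighbours Gabra4 and Gabrb1 had r = 0.81 and Spearman rho = 0.78, each with an adjusted permutation p of 3.5e-05 over 42 relations and 100000 permutations within groups. The raw p of 1e-05 is the smallest these permutations can give. For this pair r was 0.75 without the 2 farthest libraries, and 0.82 without the 7 libraries with a bulb index over 2.5. Gabra3 and Gabrb1, which lie on different chromosomes, were as close, with r = 0.81 and rho = 0.79 (adjusted permutation p = 3.5e-05 for both), and r was 0.79 without the 2 farthest libraries. All these correlations are over the same libraries, so genes share the tissue makeup and depth of each library. The part of makeup and depth in the correlations was not tested.

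Gabra5 and Gabrd ran against each other within groups, at r = -0.42 and rho = -0.33 (adjusted permutation p = 0.0276 and 0.0443). The relation was -0.47 without the 2 farthest libraries and -0.24 without the libraries with a high bulb index. Gabra2 and Gabra5 correlated at r = 0.43 and rho = 0.43 (adjusted permutation p = 0.00535 and 0.00311), and at r = 0.37 without the 2 farthest libraries.

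The 2 patterns had opposite signs with the bulb index and with the excitatory neuron index, but not with the interneuron index. Gabra5 rose with the bulb index (r = 0.72, rho = 0.68, adjusted permutation p = 3.5e-05 for both), and r was 0.69 without the 2 farthest libraries and 0.69 without the 7 libraries over 2.5. It also rose with an index of 12 interneuron markers (r = 0.68, rho = 0.67, adjusted permutation p = 3.5e-05 for both, r = 0.70 without the 2 farthest), which the other 6 genes did not do past the test (r from -0.18 to 0.23, adjusted permutation p for r of 0.205 or above). Gabrd fell with the bulb index (r = -0.61, rho = -0.57, adjusted permutation p = 0.00042 and 0.000294, r = -0.56 without the 2 farthest). It rose with an index of 7 excitatory neuron markers (r = 0.73, rho = 0.71, adjusted permutation p = 3.5e-05 for both, r = 0.72 without the 2 farthest). Gabrb1 had the highest correlation of the 7 genes with the excitatory index (r = 0.80, rho = 0.81, adjusted permutation p = 3.5e-05 for both, r = 0.77 without the 2 farthest). Gabra2 shared the sign of Gabra5. It had r = 0.56 and rho = 0.58 with the bulb index (adjusted permutation p = 0.000233 and 0.00014, r = 0.58 without the 2 farthest). With the excitatory index it had r = -0.37 and rho = -0.45 (adjusted permutation p = 0.012 and 0.00248, r = -0.35 without the 2 farthest).

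**Figure D3:**
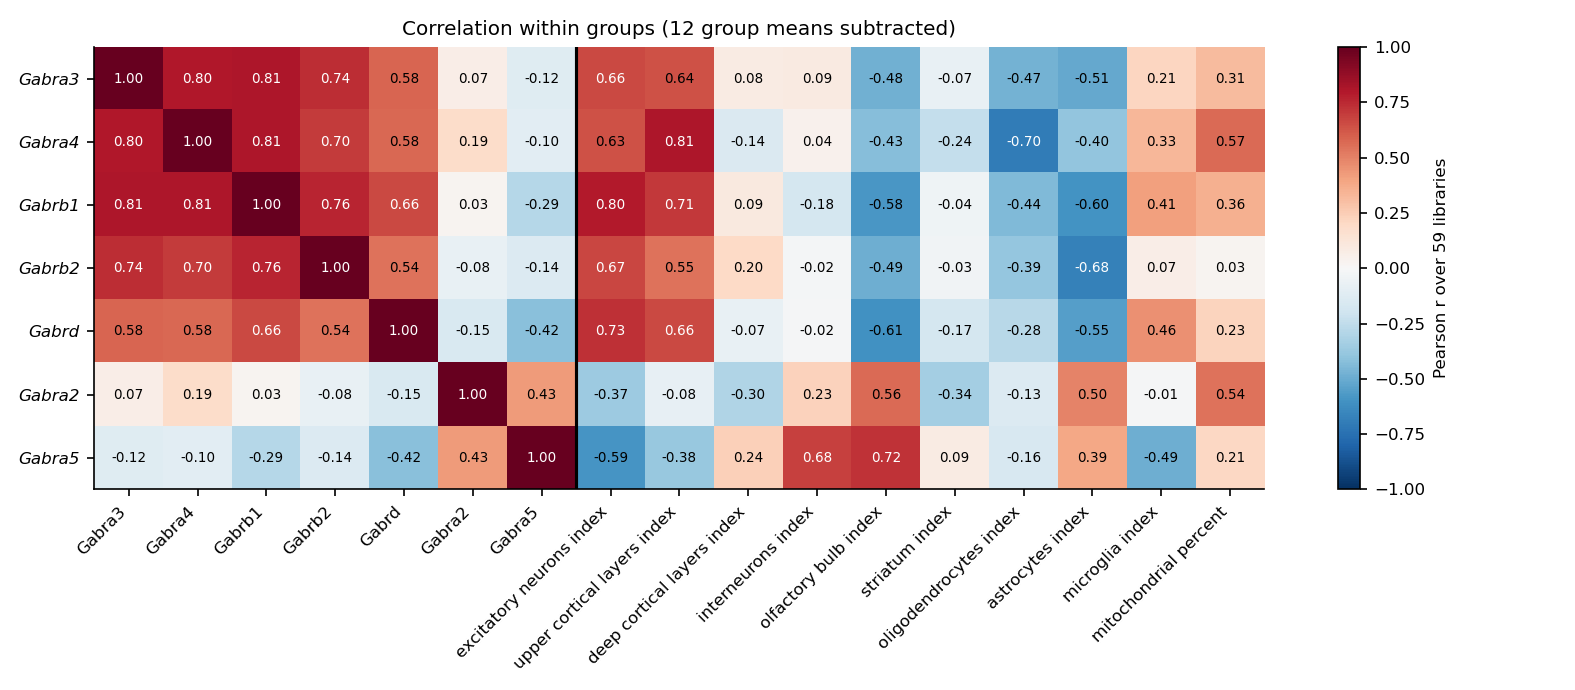
Pearson r over 59 libraries, after subtracting the 12 group means, among the 7 genes (left block) and between each gene and marker indices or the mitochondrial percent (right block). Gabra3, Gabra4, Gabrb1, Gabrb2 and Gabrd form a red block at 0.54 to 0.81, and the bulb column is negative for these 5 genes and positive for Gabra2 and Gabra5.

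**Figure D4:**
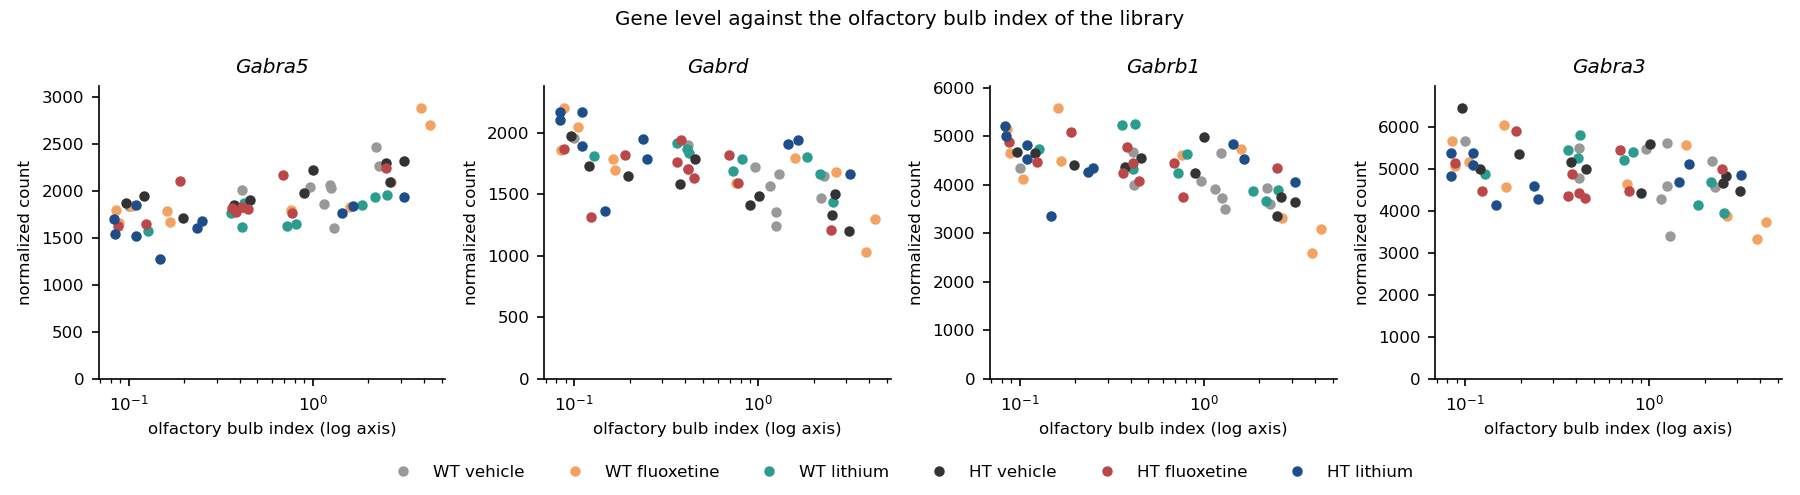
Normalized count of Gabra5, Gabrd, Gabrb1 and Gabra3 (vertical axis, from 0) against the olfactory bulb index of the library (horizontal log axis), each point a library and each colour an arm. Gabra5 is highest, at 2890.2 and 2703, in the WT fluoxetine females with indices of 3.84 and 4.31, where Gabrd has 1033 and 1302.

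For each gene, the tested genes with the most similar profile over the 59 libraries were listed by Pearson r after subtracting the group means, as a description. Genes with a profile close to that of Gabra3 were Rnf11 (r = 0.87) and Eps15 (r = 0.85). Gabra4 was most like Mtpn (r = 0.95), Tmem196 and Rnf115, and Gabrb1 most like Uhmk1 (r = 0.92), Lsamp and Ttc39b. Gabrb2 was most like Kcna2 (r = 0.84), a potassium channel gene, then Ralgapa1 and Zyg11b. Gabrd was most like 1110008P14Rik (r = 0.87), Cpne9 and Tspan7. Gabra5 was most like Zfp385b (r = 0.90), Slc38a1, a glutamine transporter gene, and Grb2, and Gabra2 most like Xpo1, Papola and Srsf7 (r = 0.83 to 0.84).

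Some genes outside the 7 from the same family were also measured. Gabrg1, a gamma subunit gene, fell with lithium in HT mice, at -0.26 ± 0.09 (limma adjusted p = 0.0391), with mean normalized counts of 866 under vehicle and 724 under lithium. Without the 8 libraries set apart it stood at -0.24 (limma adjusted p = 0.12). Gabrg3 (-0.07, limma adjusted p = 0.595) and Gabrq (-0.06, limma adjusted p = 0.856) did not pass in that comparison. With fluoxetine in WT mice Gabrg1 fell, at -0.35 ± 0.09 (limma adjusted p = 0.0194), or stood at -0.24 without those libraries (limma adjusted p = 0.124). The latter fit keeps only females 3 and 5 of the WT fluoxetine females.

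Among 24 tested genes of the inhibitory postsynapse and of receptor trafficking, 5 rose and 2 fell with lithium in HT mice, at a median of 0.05, where 10.9% of all genes were higher and 9.43% lower. The kinesin gene Kif21b (0.35 ± 0.05, limma adjusted p = 2.78e-06), the inhibitory synapse adhesion gene Nlgn2 (0.35 ± 0.06, limma adjusted p = 4.88e-05) and Macf1 (0.21 ± 0.04, limma adjusted p = 0.000293) rose. Gabarapl2, a relative of the receptor-associated protein gene Gabarap, fell (-0.20 ± 0.04, limma adjusted p = 0.000801). In WT mice, where 12.8% of all genes passed, lithium gave 3 higher and 1 lower, Macf1 (0.21 ± 0.04, limma adjusted p = 0.000594), Kif21b (0.23 ± 0.05, limma adjusted p = 0.00138), Shisa7 (0.25 ± 0.07, limma adjusted p = 0.00815) and Gabarapl2 (-0.13 ± 0.04, limma adjusted p = 0.0435). Fluoxetine in WT mice gave 3 higher, Kif21b, Macf1 and Shisa7, and none lower, where 5.66% of all genes passed. Without the 8 libraries set apart Insyn1 and Gabarap, 2 of the 7 genes called with lithium in HT mice, lost their calls (limma adjusted p = 0.117 and 0.0952). With the bulb and striatum indices as covariates Gabarapl2 lost its call in WT mice (limma adjusted p = 0.0684).

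Of 11 genes of GABA synthesis, transport and chloride balance, lithium in HT mice raised the chloride exporter gene Slc12a5 (0.35 ± 0.08, limma adjusted p = 0.000792) and lowered the kinase gene Stk39 (-0.13 ± 0.04, limma adjusted p = 0.0271). That is 2 of 11 genes, a share near the 20.3% of all genes. In WT mice it raised Wnk1 (0.19 ± 0.05, limma adjusted p = 0.00652). The glycine receptor gene Glrb fell in HT mice with lithium (-0.19 ± 0.07, limma adjusted p = 0.0499), 1 of 3 tested glycine receptor genes where 9.43% of all genes were lower, and stood at -0.17 without the libraries set apart (limma adjusted p = 0.084). Of 5 tested genes of GABA-B receptors and 5 of neurosteroid synthesis and the benzodiazepine site ligand, none passed by limma in any of the 15 comparisons, and with lithium in HT mice 1 of the first 5, and 0 of the other 5, had an unadjusted p under 0.05.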

How the data were processed

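The members and the gene lists were chosen with earlier results of these data known. Libraries were made with a stranded poly(A) kit, per the labels' protocols. Per the submitters' processing notes, the authors used Salmon 0.11.2, DESeq2 1.19.11, R 3.6.0 and the build GRCm38. Values of the deposited signal are normalized counts: reads of a gene over its library's size factor (0.783 to 1.245). Whole reads could be recovered for 100% of the values (within 0.001, largest deviation 3.6e-09), and 0 columns were unused. In 5 libraries 1 read is worth close to 1 unit, so whole values there are less telling than in the others. Symbols came from GENCODE M21.

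As the values are normalized, limma was used in place of edgeR, as planned for that case. The 16599 genes with a mean of at least 10 were tested as log2(normalized count + 1) with limma 3.58.1 in R 4.3.3 (trend, robust), with 12 group means. P-values were two-sided and adjusted (Benjamini-Hochberg) within each of 15 comparisons, with a threshold of 0.05. Named were the 7 genes in every comparison of arms, up to 4 called genes of each list by smallest p, and up to 3 of the most similar genes of each. Some genes of the list of other subunits are not reported here, left out after their values were seen, so no count over that list is given. The ratio of Gabrd to Gabra5 and the motifs were chosen after values were seen. Correlations used residuals from the group means and 100000 permutations within groups. On simulated counts for lithium in HT mice (16599 genes), 21, 44, 47 and 49 of 50 genes changed 1.2-, 1.5-, 2- and 4-fold were called, and 11 unchanged genes. Alternatives were pseudocounts of 0.5 and 5, no filter, quantile normalization, edgeR 4.0.16 and DESeq2 1.42.0 on recovered reads of all 59 libraries, only the groups compared, a replicate block, each sex alone, GC or length trends removed (loess, span 0.5), bulb and striatum indices as covariates, the 8 libraries set apart left out, and each library left out.

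Same-numbered libraries of different groups were checked for pairing. Of 319 such pairs 89 correlated above 0.1. Their mean correlation was -0.00106, against 0.000227 between libraries of other numbers, and 8 of 59 libraries were closest to their own number. No sign of pairing was seen, and the samples were not treated as paired, though this check cannot exclude it.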

Additional observations from a re-analysis of the deposited data

Results flagged for a closer look

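In 84 sets of one gene in one group of 4 or 5 libraries, 3 single values lay far from the others, where chance alone marks about 1 set in 20. Gabrb1 in WT fluoxetine male 1 had a normalized count of 5594, and the other 4 males of that group had 4499.5 to 4739. Gabrb2 in WT lithium male 5 had 5692, against 3397 to 3849 in the other males. Gabrd in WT lithium female 1 had 1438, against 1789.9 to 1839 in the other females, and that library had a bulb index of 2.53. The part of the index in that value was not tested.

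The fluoxetine effect differed between the sexes of WT mice for Gabra3, by -0.52 (limma adjusted p = 0.0381), and for Gabrb1, by -0.51 (limma adjusted p = 0.0429). Neither passed without the 8 libraries set apart, a fit that keeps only females 3 and 5 of the WT fluoxetine females.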

How the results depend on the processing

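Pseudocounts, the filter, quantile normalization and the replicate block changed no call. With the replicate block lithium in HT mice gave -0.27 for Gabra5 and 0.28 for Gabrd (limma adjusted p = 0.00534 and 0.021), with 2 genes called as before, and 2 genes were called for sex by fluoxetine in WT mice. Other settings moved the count of genes called among the 7. The percentages of all genes given above are those of the limma fit as reported, not of these settings. For sex by fluoxetine in WT mice, 2 as reported, it was 0 with edgeR, with only the groups compared, with the GC trend removed and without the libraries set apart, and 1 with the length trend removed, while DESeq2 added Gabra4 (adjusted p = 0.0482) and the covariates added Gabra2 (limma adjusted p = 0.0151). For lithium in HT mice, 2 as reported, it was 0 in females alone and 1 with the GC trend removed. For fluoxetine in WT mice, 0 as reported, it was 1 in females alone and 1 without the libraries set apart. For lithium in WT mice, 0 as reported, it was 2 with the covariates and 1 without the libraries set apart. Leaving out one library gave 1 to 2 for lithium in HT mice and 0 to 4 for sex by fluoxetine in WT mice. The cause was not tested. Results for each sex alone are contrasts of that sex's groups in the fit of all 59 libraries, so each contrast rests on fewer mice. The fits without libraries and with only the groups compared hold fewer samples. Without the libraries set apart, only females 3 and 5 of the WT fluoxetine females remain.

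No called value changed its sign. Values that did not pass changed sign in 23 of 63 results in females alone, 17 of 70 without the libraries set apart, 16 of 63 in males alone, 12 of 70 with the covariates and 9 of 70 with the GC trend removed, so directions of uncalled genes are not firm. Group sizes of 4 or 5 per sex limit the precision, and the lowest count behind a value was 994 reads.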
